A study of Mus musculus with 6 samples.

Results

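Cadherins and non-clustered protocadherins are calcium-dependent adhesion proteins of the cell surface, and 35 of the 24391 gene symbols in the deposited count table belong to them by name. They were chosen by symbol alone, as every row named Cdh or Pcdh followed by a number, with an optional final x, which gave 23 cadherins and 12 protocadherins. The protocadherins of the large alpha, beta and gamma gene clusters carry other symbols and are not included. RNA came from frozen hemibrains taken on postnatal day 0. The groups were 3 animals labelled Celf2 -/- (null, numbered 2, 4 and 10 in the labels) and 3 labelled Celf2 +/- (heterozygous, numbered 6, 7 and 11). CELF2 is an RNA-binding protein that acts on splicing, stability and translation of transcripts. All 6 animals thus lack at least 1 Celf2 allele, and no wild-type group enters the comparison. The labels give no strain, sex, litter, batch or allele design, so p-values measure the spread between these samples. Levels per library are listed throughout with heterozygous replicates 6, 7 and 11 first and null replicates 2, 4 and 10 second.

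Classical cadherins bind the same cadherin on the neighbouring cell through their outermost extracellular repeat and are tied to actin inside the cell by catenins. In the developing brain they hold the neuroepithelium together and, because neighbouring regions, nuclei and layers express different type II cadherins, they help cells of a kind to group and axons to find partners. Non-clustered protocadherins adhere more weakly, divide into delta-1 and delta-2 forms by their cytoplasmic motifs, and act in axon growth, cell movement and synapse remodelling. The members fall into 5 type I classical cadherins, 14 type II cadherins, 4 atypical cadherins, 4 delta-1 protocadherins, 5 delta-2 protocadherins and 3 other protocadherins.

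CELF proteins bind RNA rich in UGU, so the annotated 3′ UTRs of the members were searched for the 7-letter sequence TGTTTGT on the transcript strand only. The longest annotated 3′ UTR of each gene in GENCODE M21 (mouse build GRCm38) was used. It was found for all 34 members tested, with a length between 186 and 5499 bases. The 4 windows below, each of 30 bases read 5′ to 3′ with matches in capitals, show the 2 members whose matches lie in tandem and, for contrast, the single match of Pcdh8 and 1 of the 4 matches of Pcdh17, which are abundant delta-2 protocadherins.
Cdh24, from base 385 of its 3′ UTR: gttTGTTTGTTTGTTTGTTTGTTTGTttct
Cdh1, from base 229: gccttttttTGTTTGTTTGTttctgttttt
Pcdh8, from base 287: gtgtaatgtaaTGTTTGTatatactgaaat
Pcdh17, from base 1963: taaataaaggcTGTTTGTgctctgaagcag
Cdh24 held 5 overlapping matches within 1 repeat, and Cdh1 held 2. At least 1 match was present in 16 of 34 members (47.1%) and in 29.3% of the 14301 tested genes with a 3′ UTR. The members' UTRs were longer (median 1782 against 1191 bases). Between 909 and 3612 bases, the middle range of member lengths, 7 of 16 members and 35.9% of 6925 genes had a match. Per length the searched UTRs were close, at 0.344 matches per kb over the members and 0.316 per kb over all genes. The median log2 fold change (null minus heterozygous) was 0.05 in the 16 members with a match and 0.05 in the 18 without. A match describes letters and not a bound site.

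Library totals lay between 28831997 and 36531980 counts. The ribosomal precursor Rn45s took 11.8% of the counts of null replicate 2 and between 0.194% and 1.27% in the others. In the same library the midbrain genes En1 and Slc6a3, named after their values were seen, were at 0.63 and 1.1 CPM (counts scaled to a fixed library total with TMM factors), against at least 6.81 and 6.83 CPM elsewhere. The summed level of 11 hindbrain Hox genes was 10.6 to 189 CPM in heterozygous and 3.4 to 7.08 CPM in null libraries. The summed level of 10 telencephalic genes was 1130 to 1230 CPM and 1470 to 1700 CPM, and all 10 of these genes were detected in every library. Ranges of the other marker sums overlapped between heterozygous and null libraries for choroid plexus (584 to 860 and 558 to 813 CPM), thalamus (444 to 551 and 511 to 558 CPM) and muscle and skin (10.4 to 11.7 and 8.84 to 10.8 CPM). Striatal sums were 251 to 264 and 225 to 235 CPM, and astrocyte sums 1510 to 1650 and 1160 to 1470 CPM. The Hox, telencephalic, striatal and astrocyte sums thus did not overlap between the groups. Apoe, the largest of the 8 astrocyte genes, was at 695.2, 699.5 and 640.5 CPM in heterozygous and 428.8, 572.5 and 551.4 CPM in null libraries. Slc1a3, the next largest, overlapped (318.2, 295.2 and 282.2 against 276.9, 315.4 and 282.6 CPM), although all 8 had negative fold changes. The astrocyte sum thus leans on Apoe in amount. At an unadjusted edgeR p of 0.05, 4 of the 8 were lower (Apoe, Aqp4, S100b and Aldoc), beside 2.93% of all genes tested. In bulk tissue fewer cells of a type and less RNA per cell cannot be told apart. Celf2 itself was at 459, 403 and 362 CPM with the heterozygous and at 448, 390 and 331 CPM with the null genotype (exact two-sided permutation p = 0.7, where the smallest possible is 0.1). A count over the whole gene cannot reveal a missing exon, so genotype directions rest on the labels.

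Of the 34 members tested, 0 passed in either direction by edgeR's quasi-likelihood test with Benjamini-Hochberg adjustment over all 15925 genes tested, where 0% of genes passed as higher and 0.00628% as lower. The smallest adjusted p was 0.656. DESeq2 and limma-voom also called 0 members, and over all genes tested they called 0.402% and 0%. At an unadjusted p of 0.05 edgeR counted 2 members higher (Cdh2 and Pcdh1) and 1 lower (Cdh22) in null libraries. That is 3 of 34 beside 7.06% of all genes tested (4.13% higher and 2.93% lower), a share near the background. Values given as fold changes are on the log2 scale throughout, null minus heterozygous. They were positive for 21 members and negative for 13 (49.7% of all genes were positive), with a median of 0.05 beside -0.00093 over all genes. By class the median was 0.03 in type I, 0.06 in type II and -0.02 in atypical cadherins, and 0.02 in delta-1, 0.07 in delta-2 and 0.24 in the other protocadherins. Scaling by library size alone, which moved the median of all genes to -0.09, left 12 of 34 positive and a member median of -0.04.

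**Figure D1:**
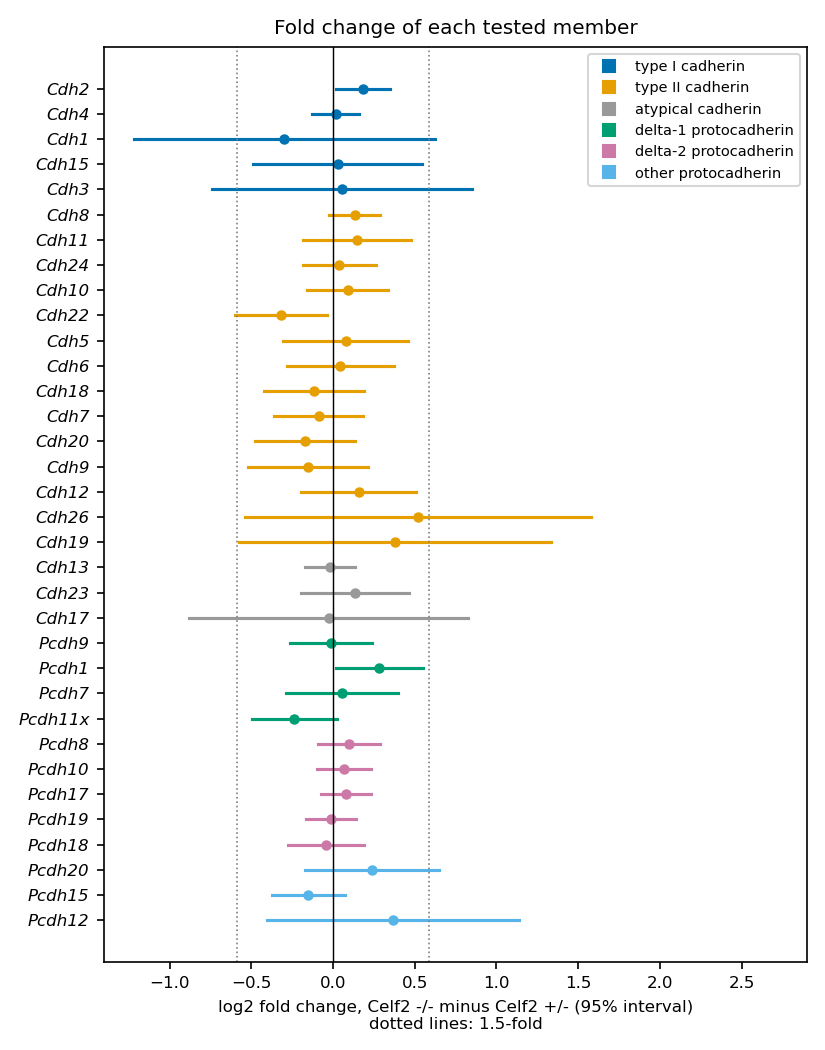
Log2 fold change (null minus heterozygous) of each of the 34 tested members with its 95% interval, coloured by class; dotted lines mark a 1.5-fold difference. Only the intervals of Cdh2, Pcdh1 and Cdh22 leave out 0, and 26 intervals lie within the dotted lines.

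The comparison set narrow bounds on most members. The 95% interval of the fold change lay within 1.5-fold in both directions for 26 of 34 members, beside 70.9% of all genes tested, and within 2-fold for 30. Among the 27 members with a mean of at least 10 CPM this was so for 25, or 92.6%, beside 93.4% of the 10426 genes at that level. The median absolute log2 fold change of these 27 was 0.10, beside 0.08 for the same genes. The 7 members under 10 CPM had a median absolute value of 0.30, and 1 of their intervals lay within 1.5-fold. The plot of all genes shows the members inside the spread of genes of like abundance.

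**Figure D2:**
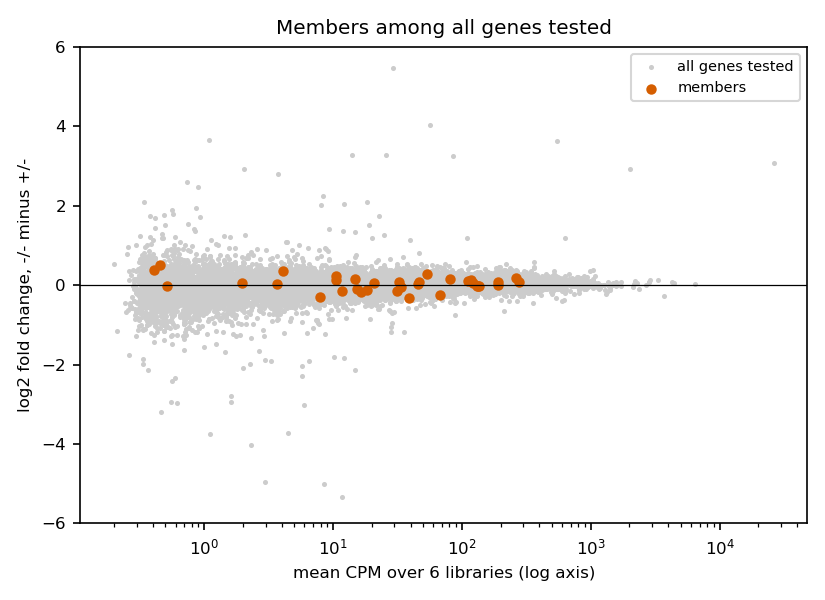
Log2 fold change of all 15925 genes tested (grey) and of the 34 members (orange) against mean CPM on a log axis. The members lie between -0.32 and 0.52, while all genes reach from -5.34 to 5.46.

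The order of levels, in CPM per kilobase of deposited gene length (RPKM), was led by Cdh13 and Cdh2. Averaged over the 6 libraries, Cdh13 was at 58.2 ± 1.92 RPKM and Cdh2 at 57.0 ± 5.09 RPKM (SD, n = 6), with overlapping ranges. Together they made up 27.2 ± 0.731% of the summed RPKM of the family. Next came Cdh4 (30.2 RPKM) and Pcdh8 (27.9 RPKM), whose ranges overlapped each other but not those of the leading pair. Pcdh10, Cdh8, Pcdh9 and Pcdh17 followed between 20.1 and 23.5 RPKM. At least 10 RPKM was reached by 15 members and at least 1 RPKM by 28. For 27 of the 34 neighbouring pairs in this order the ranges over libraries overlapped. All members were measured in the same 6 libraries and neighbours were not compared within a library, so overlap does not show equal levels. The summed level of the family was 402, 432 and 414 RPKM in heterozygous replicates 6, 7 and 11 and 422, 434 and 435 RPKM in null replicates 2, 4 and 10, with overlapping groups.

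**Figure D3:**
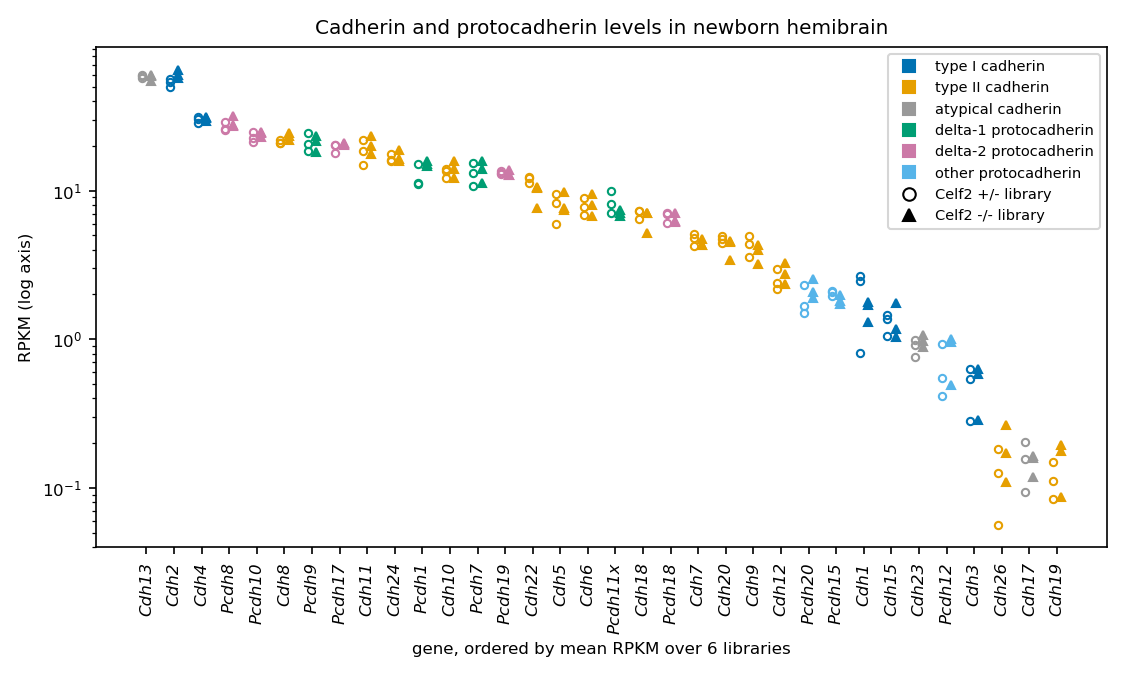
RPKM of each member with at least 1 count, on a log axis, ordered by the mean over 6 libraries; open circles are heterozygous and filled triangles null libraries, coloured by class. Means over the 6 libraries span from 58.2 RPKM for Cdh13 to 0.134 RPKM for Cdh19, and for most genes the symbols of the groups overlap. Single libraries reach from 65.05 RPKM for Cdh2 to 0.0564 RPKM for Cdh26.

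By class, type II cadherins held 28.7 ± 0.935% of the summed RPKM, delta-2 protocadherins 21.5 ± 0.445%, type I cadherins 21.4 ± 1.07%, atypical cadherins 14.0 ± 0.448%, delta-1 protocadherins 13.2 ± 0.806% and the other protocadherins 1.10 ± 0.128% (SD, n = 6). These shares differed between the genotypes by less than 1 percentage point in every class. For type I cadherins they were 21.0 ± 0.3% in heterozygous and 21.9 ± 1.43% in null libraries, and for type II cadherins 28.9 ± 0.624% and 28.4 ± 1.27% (SD, n = 3).

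Among type I cadherins, Cdh2, the N-cadherin of neuroepithelial junctions and neurons, was at 252, 260 and 232 CPM with the heterozygous and at 302, 266 and 276 CPM with the null genotype. Every null library lay above every heterozygous one, and null replicate 2 was highest. The fitted log2 difference was 0.18 with an SE of 0.07 and a 95% interval of 0.02 to 0.35, which is 114% of the heterozygous level, with an unadjusted edgeR p of 0.032 and an adjusted p of 0.656. It was 0.13 without null replicate 2 and 0.09 with library size alone. The unadjusted call ended in both, and also without heterozygous replicate 6 (0.20) or 11 (0.14), with upper-quartile factors (0.16) and with the Hox covariate (0.24). The telencephalic sum was likewise highest in null replicate 2 (1700 CPM) and higher in all null than in all heterozygous libraries; its part in the value of Cdh2 was not tested.

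Cdh4, the R-cadherin of the retina and forebrain, was at 181, 194 and 197 CPM in heterozygous and 195, 185 and 198 CPM in null libraries. The groups overlapped fully and the highest library exceeded the lowest 1.09-fold (log2 fold change 0.02, 95% interval -0.13 to 0.16). Cdh1, the E-cadherin of epithelia, was at 3.55, 10.8 and 11.7 CPM in heterozygous and 7.53, 7.91 and 5.75 CPM in null libraries. Heterozygous replicate 6 was lowest of all, and the highest of all exceeded it 3.3-fold. The fold change of Cdh1 was -0.30 with an interval of -1.22 to 0.62, and it ran from -0.67 without heterozygous replicate 6 to -0.02 without heterozygous replicate 11. Without heterozygous replicate 6, Cdh1 was the 1 member counted at an unadjusted p of 0.05, beside 5.24% of all genes tested. Cdh3, the P-cadherin of epithelia, showed low values in libraries of both genotypes, heterozygous replicate 6 (1.13 CPM) and null replicate 4 (1.16 CPM), and lay between 2.17 and 2.56 CPM in the others. Cdh15, the M-cadherin of muscle and cerebellum, lay between 2.92 and 4.95 CPM.

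Type II cadherins gave the member with the smallest p. Cdh22 was at 43.7, 44.5 and 40.2 CPM with the heterozygous and at 27.5, 37.5 and 38.0 CPM with the null genotype. Every null library lay below every heterozygous one, and null replicate 2 stood well below the other two. The fitted log2 difference was -0.32 with an SE of 0.13 and a 95% interval of -0.60 to -0.03, or 80.3% of the heterozygous level, with an unadjusted edgeR p of 0.0313 and an adjusted p of 0.656. Without null replicate 2 it was -0.18, and 0 of 34 members then passed at an unadjusted p of 0.05, beside 5.62% of all genes tested. The unadjusted call of Cdh22 also ended without heterozygous replicate 6 (-0.30) or 7 (-0.29). Adding the mean Hox level to the fit also gave -0.18 and ended the call. That level, a mean log2 CPM, was 1.0, 3.7 and -0.1 in heterozygous and -1.6, -0.4 and -1.3 in null libraries. It did not overlap between the groups, so the fit cannot fully part Hox level from genotype.

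Null replicate 2 also held the lowest value of Cdh6, Cdh9, Cdh18 and Cdh20, although for Cdh6 it was level with heterozygous replicate 6 (17.9 CPM in both). It held the lowest value of 9 of the 34 members and the highest of 9 others, among them Cdh2, Cdh5, Cdh24, Pcdh8 and Pcdh12. Cdh18 was at 14.3 CPM there and at 17.7 CPM or more elsewhere, and Cdh20 at 12.7 CPM there and between 16.4 and 18.5 CPM elsewhere. Without that library the fold change of Cdh18 moved from -0.12 to 0.01 and that of Cdh20 from -0.17 to -0.05. In the same library the cerebellar markers summed to 109 CPM, against 144 to 191 CPM elsewhere, and En1 and Slc6a3 were low as given above; their part in these values was not tested.

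Cdh8, a cadherin of cortical and striatal territories, was at 115, 110.0 and 109.7 CPM in heterozygous and 116, 128 and 122 CPM in null libraries. The groups did not overlap, but heterozygous replicate 6 and null replicate 2 differed by about 1 CPM. Its fold change was 0.13 (95% interval -0.03 to 0.29, edgeR adjusted p = 0.776). Groups without overlap were counted for 3 members higher (Cdh2, Cdh8 and Pcdh17) and 1 lower (Cdh22), or 4 of 34, beside 6.21% and 6.47% of all genes tested. Cdh11, of mesenchyme and forebrain, was at 62.3, 77.3 and 93.0 CPM in heterozygous and 74.3, 84.2 and 98.5 CPM in null libraries, with the groups interleaved. Cdh10 and Cdh24 lay between 41.6 and 54.2 CPM and between 43.0 and 51.4 CPM, with fold changes of 0.09 and 0.04. Cdh24, with the tandem TGTTTGT matches printed above, had a 95% interval of -0.18 to 0.26.

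The other neural type II cadherins were less abundant. Cdh6 lay between 17.9 and 24.9 CPM, Cdh7 between 14.2 and 17.2 CPM, Cdh9 between 9.30 and 14.4 CPM and Cdh12 between 12.2 and 18.3 CPM. For each of these 4 the groups overlapped, and fold changes ran from -0.15 for Cdh9 to 0.16 for Cdh12. Cdh19, a marker of the Schwann cell lineage (8 other markers of which summed to 70.5 to 87.3 CPM in heterozygous and 70.2 to 89.5 CPM in null libraries), and Cdh26 lay at or under 0.788 CPM in every library, and their 95% intervals of -0.58 to 1.34 and -0.54 to 1.58 on the log2 scale hold a 2-fold higher level but not a 2-fold lower one.

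Cdh5, the VE-cadherin that seals endothelial junctions, was at 23.7, 37.9 and 32.6 CPM in heterozygous and 39.3, 30.6 and 29.6 CPM in null libraries. The groups overlapped, with a log2 fold change of 0.08 (95% interval -0.30 to 0.46). Pcdh12, the endothelial protocadherin, was at 2.31, 3.06 and 5.21 CPM against 5.63, 2.73 and 5.37 CPM, and its fold change of 0.37 had an interval from -0.41 to 1.14. It ran from 0.13 without heterozygous replicate 6 to 0.76 without heterozygous replicate 11. The 8 endothelial markers summed to 216, 236 and 217 CPM in heterozygous and 258, 238 and 213 CPM in null libraries, and null replicate 2 was highest for the sum, for Cdh5 and for Pcdh12. Most of the 8 did not share that order. Cldn5, Flt1 and Emcn were highest in null replicate 2, Pecam1, Tek, Tie1 and Esam in heterozygous replicate 7, and Kdr in null replicate 4.

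Heterozygous replicate 6 held the lowest value of 13 of the 34 tested members, more than any other library (null replicate 2 held 9). They included Cdh1, Cdh3, Cdh5, Cdh11, Pcdh1, Pcdh12 and Pcdh20. The 8 meningeal markers, fibroblast genes such as Col1a1 and Foxc1, all detected in every library, summed to 210 CPM in heterozygous replicate 6 and to 344 to 516 CPM in the others. Its part in these members' values was not tested. Without heterozygous replicate 6 the median fold change of the family was -0.0053, and without heterozygous replicate 7 it was 0.10.

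**Figure D4:**
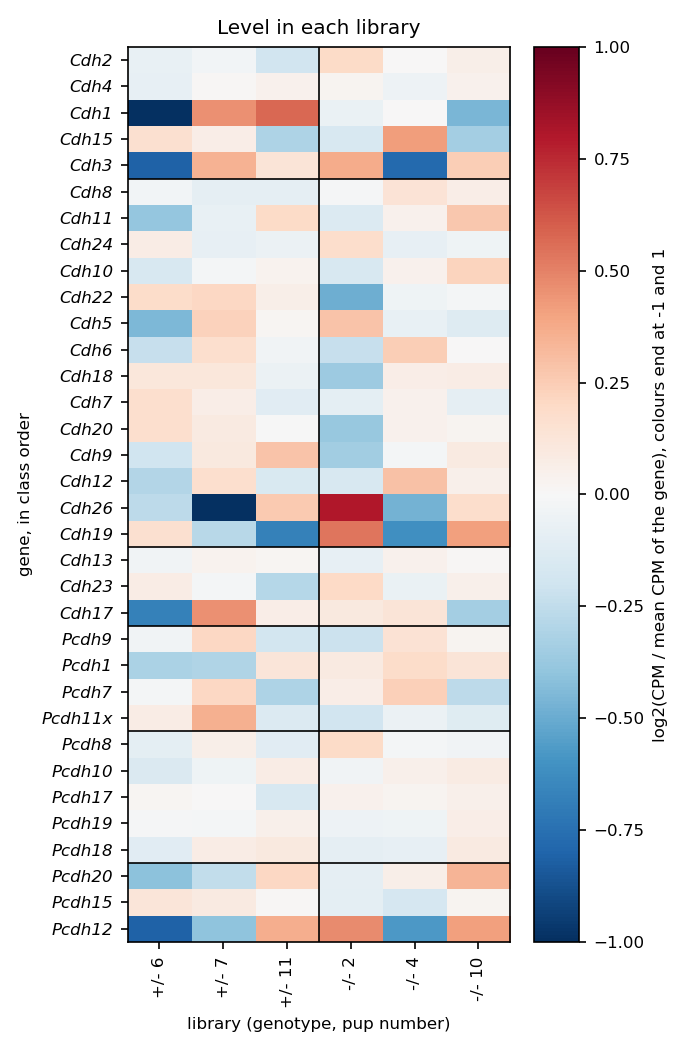
Level of each tested member in each library as the log2 ratio to the gene's mean CPM over the 6 libraries, in class order; horizontal lines divide the classes and the vertical line the genotypes. Single libraries stand apart within a genotype, such as heterozygous replicate 6 for Cdh1 (3.55 CPM) and null replicate 2 for Cdh22 (27.5 CPM).

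Among atypical cadherins, Cdh13, the GPI-anchored T-cadherin without a cytoplasmic tail, was the steadiest of the abundant members with Cdh4 and Pcdh19. It was at 130.4, 137 and 135 CPM in heterozygous and 126, 137 and 134 CPM in null libraries. Its fold change was -0.02, and the 95% interval allowed 89.0% to 109.6% of the heterozygous level. Cdh23 and Pcdh15 form the tip link that gates the transduction channel of hair cells in the inner ear. In hemibrain Cdh23 lay between 8.60 and 12.1 CPM and Pcdh15 between 27.8 and 33.9 CPM. Their fold changes were 0.13 and -0.15, and neither separated the groups. Of 8 genes that work with the tip link, 5 were tested, with a median of -0.16, and 0 were counted at an unadjusted p of 0.05; Tmie was at -0.35 and Lhfpl5 at -0.24 (edgeR adjusted p = 0.813 and 0.879). Cdh17, the liver-intestine cadherin, lay between 0.323 and 0.707 CPM. Cdh16, the kidney cadherin, had 0 counts in all 6 libraries, which allows up to 0.118 CPM (3 counts in null replicate 2, the highest of the 6 limits), and was not tested.

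For the 4 delta-1 protocadherins the highest library exceeded the lowest 1.34- to 1.46-fold, and all 4 intervals lay within 1.5-fold. Pcdh1 was at 43.4, 43.7 and 58.7 CPM in heterozygous and 57.3, 61.3 and 58.9 CPM in null libraries. Heterozygous replicate 11 lay within the null range, and the other two lay below it. The fitted log2 difference was 0.28 with an SE of 0.12 and a 95% interval of 0.02 to 0.55, or 122% of the heterozygous level, with an unadjusted edgeR p of 0.0382 and an adjusted p of 0.678. Without heterozygous replicate 11 it was 0.44 with an adjusted p of 0.234, and with the Hox covariate it was 0.09. The unadjusted call ended with that covariate, which did not overlap between the groups, and on leaving out any other single library (0.21 to 0.31). It also ended with library size alone (0.20), where the median of all genes was -0.09.

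Pcdh11x was at 71.4, 86.6 and 61.7 CPM in heterozygous and 59.2, 65.1 and 62.1 CPM in null libraries. The heterozygous libraries spread over a wider range that overlapped the null one. Its fold change of -0.24 (adjusted p = 0.736) was -0.10 without heterozygous replicate 7 and 0.10 with the Hox covariate. Pcdh9 was at 129, 152 and 116 CPM against 114, 146 and 134 CPM, and Pcdh7 at 120.2, 140.5 and 98.3 CPM against 128, 143 and 101.5 CPM. Both interleaved between the genotypes, with fold changes of -0.01 and 0.05.

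Delta-2 protocadherins, whose cytoplasmic tails can bind the WAVE complex that drives branched actin, varied little between libraries. The highest library exceeded the lowest 1.08- to 1.23-fold. All 5 intervals lay within 1.5-fold, and fold changes ran from -0.05 for Pcdh18 to 0.10 for Pcdh8. Pcdh8, or arcadlin, which takes part in removing N-cadherin from active synapses, was at 104, 117 and 103 CPM in heterozygous and 127, 110.2 and 109 CPM in null libraries. The groups overlapped. The 10 immediate-early genes, which neuronal activity induces, summed to 374, 1080 and 78.4 CPM in null replicates 2, 4 and 10. In heterozygous libraries they summed to 80.5 to 108 CPM, and their part in the values of Pcdh8 was not tested. Pcdh10, of striatal and thalamocortical axon growth, was at 251, 268 and 292 CPM against 269.9, 287 and 293 CPM. Pcdh17, of corticobasal ganglia circuits, was at 194, 192 and 171 CPM against 197, 194 and 198 CPM, so that the genotypes were separated by a margin of about 0.1 CPM. Pcdh19, whose human ortholog is mutated in an X-linked epilepsy, was at 134, 133 and 140.3 CPM against 131, 132 and 142 CPM, a 1.08-fold range over all libraries and the narrowest of the family. Pcdh18 lay between 31.4 and 36.4 CPM. Pcdh20, counted with neither delta class here, lay between 7.88 and 13.2 CPM, with a fold change of 0.24 and an interval from -0.17 to 0.65.

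Several members are neighbours in the RefSeq gene order of GRCm38, with no other protein-coding gene between them. These runs are Cdh8, Cdh11 and Cdh5, then Cdh6, Cdh9, Cdh10 and Cdh12, and the pairs Cdh3 and Cdh1, Cdh7 and Cdh19, and Pcdh20 and Pcdh9. Neighbours could differ in level, as did Cdh7 (4.57 RPKM) and Cdh19 (0.134 RPKM) or Pcdh9 (21.1 RPKM) and Pcdh20 (2.00 RPKM), or overlap in their ranges, as did Cdh8 (22.1 RPKM) and Cdh11 (19.4 RPKM). Fold changes were positive for Cdh8, Cdh11 and Cdh5 (0.13, 0.14 and 0.08). With library size alone Cdh5 was at -0.02, where the median of all genes was -0.09. In the run of 4 they were -0.15 for Cdh9 and 0.04, 0.09 and 0.16 for Cdh6, Cdh10 and Cdh12.

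The catenins, which link classical cadherins to actin, were described from a list with 8 of 9 members tested. All 8 had positive fold changes, beside 49.7% of all genes tested. Their median was 0.12 beside -0.00093 over all genes tested, and 0 passed over all genes. With library size alone, which moved the median of all genes to -0.09, 6 were positive and the catenin median was 0.03. Without null replicate 2, 6 of 9 tested were positive. The count was 7 without heterozygous replicate 11 and 5 with the Hox covariate, which did not overlap between the groups. At an unadjusted p of 0.05 edgeR counted 1 of the 8 as higher, beside 4.13% of all genes. It was Ctnnd1, the p120 catenin that keeps cadherins at the surface. It was at 113, 114 and 114 CPM in heterozygous and 139, 138 and 120 CPM in null libraries, with every null library above (0.22, SE 0.08, edgeR adjusted p = 0.63). Ctnnb1, or beta-catenin, was at 874, 816 and 822 CPM against 956, 889 and 861 CPM, with heterozygous replicate 6 inside the null range (0.11, adjusted p = 0.808).

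Among 16 junction partners 10 were positive, with a median of 0.04, and 2 were counted as higher and 0 as lower at an unadjusted p of 0.05, beside 4.13% and 2.93% of all genes. Without overlap, 1 was higher (Mllt4) and 2 were lower, Pvrl1 (-0.14) and Rap1a (-0.17), beside 6.21% and 6.47% of all genes. Mllt4, which encodes afadin of nectin junctions, was at 218, 214 and 243 CPM in heterozygous and 301, 257 and 269.9 CPM in null libraries, without overlap (0.29, SE 0.08, edgeR adjusted p = 0.496). Magi2, a scaffold of junctions and synapses, was at 62.0, 70.1 and 82.8 CPM against 81.2, 93.7 and 89.5 CPM, with heterozygous replicate 11 inside the null range (0.30, adjusted p = 0.632). Of 11 WAVE complex genes and protocadherin partners 7 were positive, with a median of 0.03, and 0 were counted at that threshold, with Cyfip2 at 0.12 and Brk1 at -0.11 (edgeR adjusted p = 0.789 and 0.842).

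Other genes of the cadherin superfamily, the Fat, Dachsous, Celsr, calsyntenin, Cdhr and desmosomal genes and Ret, were counted more often. At an unadjusted p of 0.05, 6 of 18 tested were higher and 1 lower, beside 4.13% and 2.93% of all genes. With library size alone 1 was counted as higher, with the Hox covariate 3, and without single libraries 3 to 5. Their median was 0.08, with 12 positive. The higher ones were Fat1, Fat3, Fat4, Celsr1, Clstn2 and Dsg2. The difference from the 34 members was not tested, and the list was chosen with earlier results of these data known. Fat1, a giant cadherin of planar polarity, was at 125, 143 and 136 CPM in heterozygous and 156, 158 and 158 CPM in null libraries, without overlap (0.23, SE 0.07, edgeR adjusted p = 0.538). Ret, a receptor kinase with cadherin repeats, was at 33.6, 44.4 and 28.0 CPM against 17.2, 27.8 and 20.2 CPM, also without overlap (-0.70, SE 0.20, adjusted p = 0.527). Over all genes tested, edgeR's adjusted p called 0 genes of these 5 lists, the smallest being that of Mllt4.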

How the data were processed

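Deposited read counts, whole numbers for each gene symbol, and a gene length column were analysed for 3 Celf2 -/- and 3 Celf2 +/- hemibrains. Upstream software, per the submitters' processing notes, included STAR, cutadapt, CASAVA, MACS2, Picard and bedtools, and mm9 and hg19 are the genome builds they list; roles and versions are absent there. Which program counted reads, with which strand setting and gene models, is not given in the sources used here, which leaves overlapping and antisense genes uncertain. The labels' protocol names a stranded total-RNA kit, while the series' design text names poly(A) RNA; this conflict was not resolved.

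Counts were fitted as deposited with edgeR 4.0.16 (R 4.3.3; TMM, filterByExpr, robust quasi-likelihood test, Benjamini-Hochberg adjustment over 15925 genes, threshold 0.05). The biological coefficient of variation was 13.9%. CPM used TMM-scaled totals, RPKM divided CPM by the deposited length, the SE came from the fold change and F, and intervals are 95%. The fit was also run on counts simulated with known folds, and the outcome is not given here. Those counts used library sizes without TMM factors, so differences in TMM factor between libraries were not covered. A count of 0 was given a limit of 3 counts, which covers counting error only. 3′ UTRs came from the GENCODE M21 basic annotation. All 35 members matched RefSeq symbols.

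The family was set by symbol alone. The members named with values per library and the gene lists were chosen with earlier results of these data known. These lists were catenins, junction partners, WAVE complex, other superfamily genes, tip link, and the marker lists. Values per library were given for members with an unadjusted p under 0.05, the 2 highest by RPKM in each class, Cdh1, Cdh2, Cdh5 and Pcdh12, the 2 of smallest p in each partner list and Celf2; further members were added after their values were seen. Alternatives were other scalings, other count filters, DESeq2 1.42.0, limma-voom 3.58.1, a Hox covariate and leaving out each library.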

Additional observations from a re-analysis of the deposited data

How the results depend on the processing

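No member passed the adjusted threshold under any of the 14 alternatives run with edgeR, DESeq2 or limma-voom (0 higher and 0 lower). No paired analysis was possible because the groups share no replicate numbers. Scaling by library size alone gave 0 members higher and 2 lower at an unadjusted p of 0.05, beside 5.59% of all genes in either direction. Without overlap it gave 0 higher and 2 lower, beside 1.73% and 11.6% of all genes. It also gave 2 partner genes higher and 12 positive members. Its medians were -0.039 for the family, -0.048 for type I, -0.10 for atypical and -0.015 for delta-2 members. It changed the sign of Cdh15 (-0.048), Cdh24 (-0.052), Cdh3 (-0.046), Cdh4 (-0.072), Cdh5 (-0.020), Cdh6 (-0.032), Pcdh10 (-0.015), Pcdh17 (-0.0055) and Pcdh7 (-0.031). The median of all genes was -0.09 under this scaling. Upper-quartile factors gave 1 member higher at an unadjusted p of 0.05, beside 7.05% of all genes in either direction. Without overlap they gave 1 higher and 2 lower, beside 5.04% and 8.06% of all genes, and they put Cdh4 at -0.0049. The atypical median was 0.054 where 1 CPM was required in 3 libraries and 0.040 with limma-voom, which put Cdh17 at 0.040. With the Hox covariate 3 members were higher at an unadjusted p of 0.05 (Cdh12, Pcdh7 and Pcdh9, beside 2.67% of all genes in either direction), none of which was counted without it, and 0 were lower. In that fit 3 partner genes were higher and 0 lower. The covariate did not overlap between the groups, so that fit cannot fully part Hox level from genotype. Medians were then 0.16 for type I, 0.20 for atypical, 0.20 for delta-1 and -0.14 for the other protocadherins. That fit changed the sign of Cdh13 (0.020), Cdh17 (0.39), Cdh18 (0.032), Cdh24 (-0.041), Cdh26 (-0.64), Cdh4 (-0.00033), Cdh7 (0.011), Pcdh11x (0.099), Pcdh12 (-0.19) and Pcdh9 (0.29), and the cause was not tested. Leaving out 1 library at a time gave 0 to 4 members higher and 0 to 2 lower at an unadjusted p of 0.05. In the same fits 3.7% to 9.69% of all genes were counted in either direction. Without overlap these fits gave 3 to 6 members higher and 1 to 6 lower (8.88% to 13.7% and 8.71% to 14.7% of all genes). They gave 17 to 23 positive members, with 4 to 10 partner genes higher and 1 to 2 lower at an unadjusted p of 0.05. Without heterozygous replicate 11, 6 members were counted (Cdh11, Cdh22, Pcdh1, Pcdh11x, Pcdh12 and Pcdh20), beside 9.69% of all genes. The atypical median ran from -0.044 to 0.16. The fold changes whose sign changed ran from -0.0086 to 0.18 for Cdh10, -0.044 to 0.019 for Cdh13, -0.24 to 0.18 for Cdh15, -0.29 to 0.24 for Cdh17, -0.19 to 0.015 for Cdh18, -0.042 to 0.091 for Cdh24, -0.22 to 0.35 for Cdh3, -0.020 to 0.044 for Cdh4, -0.088 to 0.23 for Cdh5, -0.086 to 0.16 for Cdh6, -0.049 to 0.011 for Pcdh19, -0.069 to 0.19 for Pcdh7 and -0.099 to 0.10 for Pcdh9. In all, 46 of 473 fold changes of a member under an alternative had the opposite sign, in 19 of 34 members. Cdh2 and Pcdh1 stayed positive and Cdh22 negative in each of these fits.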
